A study of Mus musculus with 1 sample.

Results

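Droplet-based single-cell RNA sequencing was carried out on adrenal medullae of wild-type mice at postnatal day (P) 15, and the SOX family of transcription factors was followed across the cells of this library. The members described here were taken by gene symbol, namely *Sox2*, *Sox4*, *Sox5*, *Sox6*, *Sox8*, *Sox9*, *Sox10*, *Sox11*, *Sox17* and *Sox18*, so they are 10 of the 32285 genes in the matrix. All 10 were detected, with totals between 39 UMIs (*Sox9*) and 5929 UMIs (*Sox4*) in the cells that passed quality control. A UMI is a molecular tag that counts 1 captured RNA molecule. The animals were wild type and untreated, of mixed sex, and 10 adrenals of 5 mice were pooled into 1 suspension after fat and surplus cortex had been trimmed away by hand. There is therefore 1 library and no replicate, differences between cell classes carry no test, and every interval given is an exact 95% interval for counting error only.

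SOX proteins bind DNA through a conserved domain, the HMG box, and are sorted into groups by the similarity of this domain. SOXB1 (*Sox2*) and SOXE (*Sox8*, *Sox9*, *Sox10*) factors are best known from neural stem cells, neural crest and glia, SOXD factors (*Sox5*, *Sox6*) lack a transactivation domain and act together with other SOX proteins, SOXC factors (*Sox4*, *Sox11*) are known from immature neurons and many progenitors, and SOXF factors (*Sox17*, *Sox18*) from blood and lymph vessel endothelium. The adrenal medulla derives from the neural crest. Its chromaffin cells secrete adrenaline or noradrenaline, and its sustentacular cells are glia-like support cells wrapped around them.

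The members' relatedness is visible in the coding sequence of the HMG box. The stretches shown are 60 bases of the box, beginning at a motif conserved in all members, read 5′ to 3′ on the coding strand from GENCODE transcripts of GRCm38. These 7 members are shown because the results turn on *Sox2* and on pairs of one group that were high in the same classes (*Sox17* and *Sox18*), in different classes (*Sox8* and *Sox10*), or broadly against in a few classes (*Sox4* and *Sox11*). Capitals mark bases that differ from *Sox2*.
Sox2: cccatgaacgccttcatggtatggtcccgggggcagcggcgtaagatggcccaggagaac
Sox8: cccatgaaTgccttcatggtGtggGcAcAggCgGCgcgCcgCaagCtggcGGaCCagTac
Sox10: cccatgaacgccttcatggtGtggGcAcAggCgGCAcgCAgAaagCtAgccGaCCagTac
Sox4: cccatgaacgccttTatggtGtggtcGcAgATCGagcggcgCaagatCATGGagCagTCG
Sox11: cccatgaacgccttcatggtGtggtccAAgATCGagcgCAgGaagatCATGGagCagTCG
Sox17: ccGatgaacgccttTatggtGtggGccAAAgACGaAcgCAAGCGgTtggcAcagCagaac
Sox18: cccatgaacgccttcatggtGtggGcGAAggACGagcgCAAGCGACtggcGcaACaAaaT
Over the whole box of 237 bases, *Sox4* and *Sox11* shared 89.5% of bases, *Sox17* and *Sox18* 82.3%, *Sox5* and *Sox6* 82.7%, and *Sox8* and *Sox10* 81.4%. The 39 pairs from different groups shared 53.2% to 75.1%, with a median of 65.0%.

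The library held 11214 barcodes, of which 10139 passed the study's limits, with a median of 3567 UMIs and 1611 genes. Clustering gave 12 classes with 9064 of these cells, named from marker lists that contain no SOX gene and written X-like. Another 1032 cells are called mixed here. They fell into 6 clusters that carried markers of several lineages, with 16.1% to 89.6% of cells called doublets by Scrublet, and a cluster of 16 cells led by *Gzma*, *Igkc* and *Trbc2* among the endothelial cells that met none of the lineage lists (6.25% doublets). A further 43 cells led by *Ccl5*, *Gzma* and *Nkg7* were left unnamed. The labelled tissue is the medulla, but 3429 cells carried cortical markers and 2134 endothelial ones. Depth differed between classes, from a median of 1149 UMIs in the 179 sustentacular-like cells to 8260.5 UMIs in the 358 cycling cortex-like cells. Levels are therefore given as CPM, the summed UMIs of a gene per 1000000 UMIs of the class, and compared within a gene only. The sustentacular-like class is shallow and small, but its leading gene by fold was *Scn7a*, and 8 of its 12 markers were found in at least 25% of its cells. Markers of other cell types were present in it too. Of the 6 fibroblast markers 2 were found in at least 25% of its cells, with a summed 1207 CPM against 2551 CPM in the fibroblast-like class, and the other 4 were at 0. All 7 chromaffin markers had a UMI and 1 was found in at least 25% of the cells, with a summed 3128 CPM against 82505 CPM in the adrenaline chromaffin-like class. The part of these in the SOX values of the class was not tested. The SOX genes took part in the clustering, and leaving every SOX gene out of the variable features gave 377 CPM for *Sox10* in the sustentacular-like cells against 381 CPM with them.

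**Figure D1:**
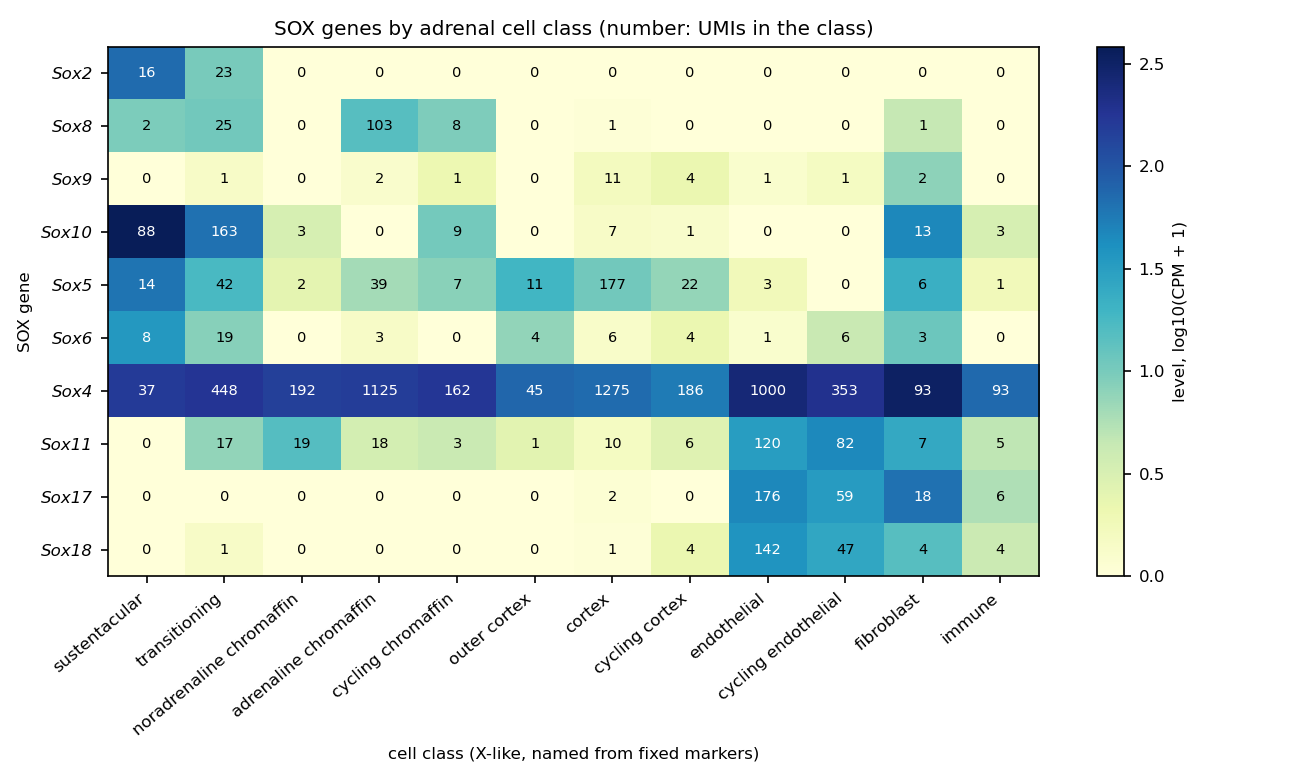
Level of the 10 SOX genes (rows) in the 12 named cell classes (columns). Colour is log10(CPM + 1) and the number in each field is the UMI count. *Sox2* and *Sox10* are concentrated on the left in the sustentacular-like and transitioning-like classes. Most UMIs of *Sox17* and *Sox18* lie on the right in the endothelial classes, while the *Sox17* level was highest in the fibroblast-like class. *Sox4* has UMIs in every class.

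The SOX genes differed in the classes where they were highest. *Sox2* and *Sox10* lay in the sustentacular-like and transitioning-like cells. Among the chromaffin-like classes *Sox8* was highest in the adrenaline and *Sox11* in the noradrenaline cells. Most UMIs of *Sox17*, *Sox18* and *Sox11* lay in the endothelium, though the *Sox17* level was highest in the fibroblast-like cells. *Sox5* was highest in the sustentacular-like cells, but 55.4% of its UMIs lay in the cortical classes. As a fixed rule of size, a gene was counted as high in a class when its level was at least 4-fold that of all other cells on CPM + 10. Of the 7 members with at least 100 UMIs, 3 reached this in a named class. The share of all genes is given for each class below, but not for reaching the rule in any class. *Sox2*, *Sox6* and *Sox9* had fewer UMIs and were not counted. *Sox10* and *Sox5* reached it in the sustentacular-like class (26.0-fold and 4.02-fold), where 2.74% of all 12667 genes tested did. The *Sox5* value lay just above the limit: the class held 13 in place of 14 *Sox5* UMIs under each of 5 other clusterings, the fold was 2.77 to 3.88, and the count of members was then 2. *Sox10* also reached it in the transitioning-like class (5.45-fold, 1.12% of all genes), and *Sox17* in the endothelial-like class (4.16-fold, 2.87% of all genes) and the fibroblast-like class (4.46-fold, 1.55% of all genes). No member did so in the other classes, where the share of all genes was 1.17% in the noradrenaline, 1.54% in the adrenaline and 0.261% in the cycling chromaffin-like cells, 0.742% in the outer cortex-like, 0.213% in the cortex-like, 0.6% in the cycling cortex-like, 2.11% in the cycling endothelial-like and 2.87% in the immune-like cells. It was 3.13% for all endothelial-like cells together, where *Sox17* reached the rule (4.22-fold). It was 0.726% for all cortical and 2.19% for all chromaffin-like cells together, where no member did. The class-defining clusters were drawn from these same cells, so the folds are a description.

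*Sox10* (ENSMUSG00000033006, chr15:79154908-79165240, minus strand, GRCm38) encodes the SOXE factor that neural crest cells and peripheral glia depend on. It was highest in the sustentacular-like cells, with 88 UMIs, or 381 CPM (305 to 469). In the transitioning-like cells, which carried chromaffin and sustentacular markers together, it had 163 UMIs, or 64.3 CPM (54.8 to 75.0). The level was 5.92-fold higher in the sustentacular-like cells (4.52 to 7.72), so the intervals of the 2 classes were far apart. The adrenaline chromaffin-like cells had 0 UMIs of *Sox10* in 7356536 UMIs, which allows a level of up to 0.501 CPM, and the noradrenaline chromaffin-like cells had 3 UMIs, or 2.28 CPM. Transitioning-like cells were thus 51.6-fold (28.7 to 102) above all chromaffin-like cells together.

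By cell, 70 of 179 sustentacular-like cells (39.1%, median 1149 UMIs) and 120 of 414 transitioning-like cells (29.0%, median 5180.5 UMIs) had a *Sox10* UMI. None of 1669 adrenaline chromaffin-like cells (median 3163 UMIs) did, which allows a share of up to 0.221%. Thinning to 1000 UMIs left out 56 sustentacular-like and 2 transitioning-like cells with fewer UMIs. The shares were then 33.3% of 123 and 7.77% of 412 cells, so in these cells at equal depth the gap between the classes was larger than the raw shares show. The transitioning-like cells had all 7 chromaffin markers and 8 of 12 sustentacular markers in at least 25% of cells. Scrublet called 0.483% of them doublets.

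Smaller amounts of *Sox10* lay outside these classes. The 134 cycling chromaffin-like cells had 9 UMIs, or 9.51 CPM (4.35 to 18.0), in 7 cells. Scrublet called 11.9% of that class doublets, and 7 of the 9 UMIs remained in the other cells, at 8.68 CPM (3.49 to 17.9). The class carried 11 of the 12 sustentacular markers at a summed 197 CPM, against 61.5 CPM in the noradrenaline and 19.3 CPM in the adrenaline chromaffin-like cells. It also had 4 of the 8 cortical markers in at least 25% of its cells, at a summed 1946 CPM against 145 and 122 CPM in these 2 classes. The part of either in the *Sox10* value was not tested. By their own *Pnmt*, *Penk*, *Cox8b* and *Lix1* UMIs, 28 cycling cells lay on the noradrenaline side and held 7 of these UMIs, while 103 lay on the adrenaline side and held 2. The 89 fibroblast-like cells had 13 UMIs, or 45.7 CPM (24.3 to 78.1), in 8 cells. Of those 8 cells 5 also had *Cdh19*, a Schwann cell cadherin, against 3 of the 81 cells without *Sox10*, at median depths of 3333 and 1890 UMIs. The fibroblast-like class carried 11 of the 12 sustentacular markers at a summed 706 CPM, against 6620 CPM in the sustentacular-like and 3.39 CPM in the endothelial-like class, and the part of this in the *Sox10* value was not tested.

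**Figure D2:**
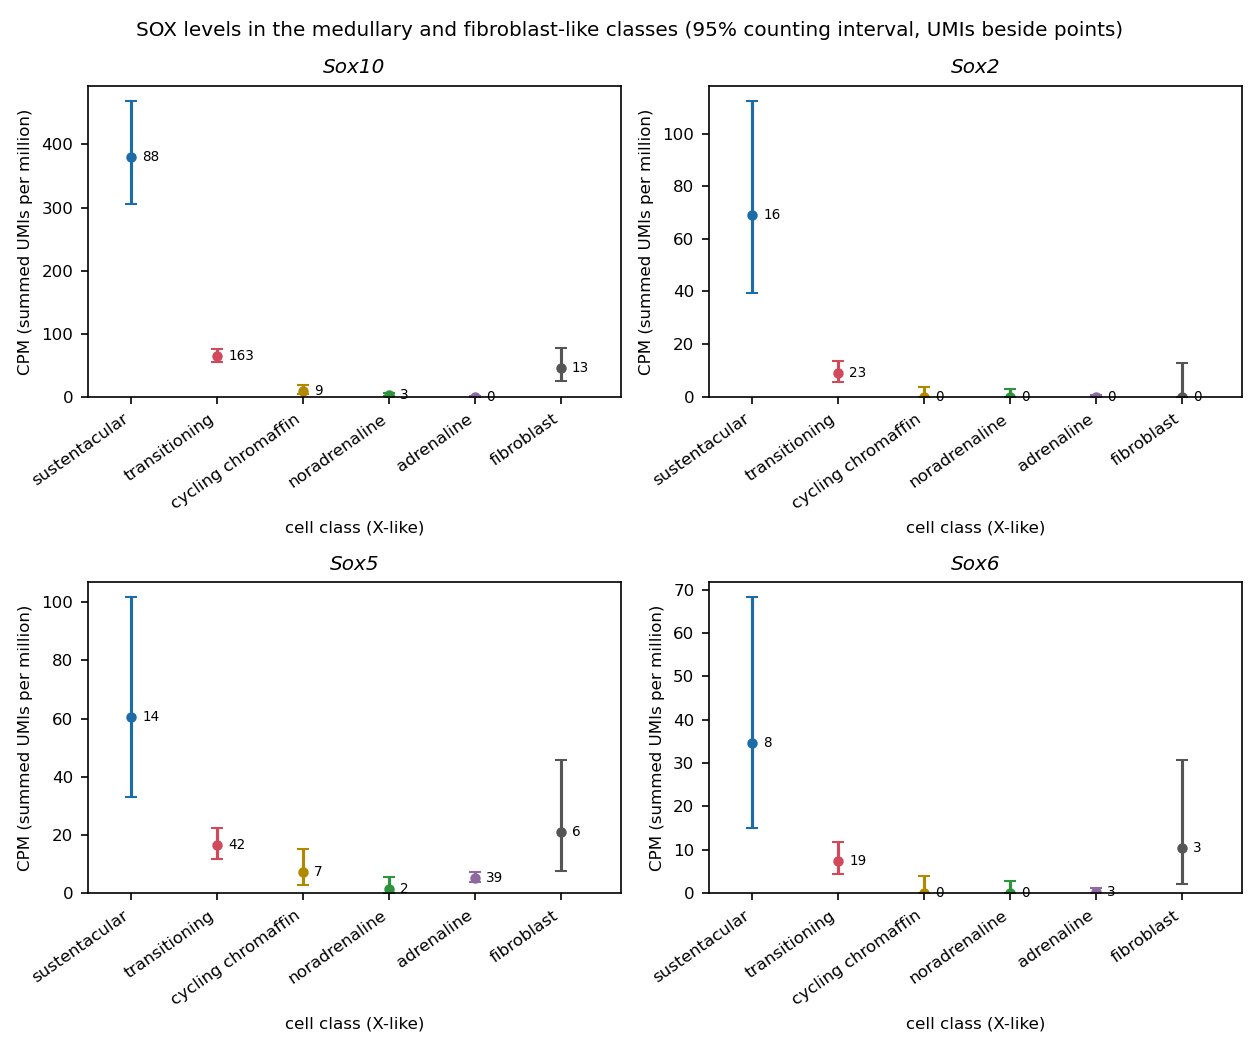
Levels of *Sox10*, *Sox2*, *Sox5* and *Sox6* (vertical axis, CPM from 0) in 6 cell classes, with exact 95% counting intervals as bars and the UMI count beside each point. All 4 genes were highest in the sustentacular-like class and next highest in the transitioning-like or fibroblast-like class; the noradrenaline and adrenaline chromaffin-like classes lie near 0 for *Sox10*, *Sox2* and *Sox6*.

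*Sox2* (ENSMUSG00000074637, chr3:34650405-34652461, plus strand) encodes a SOXB1 factor that maintains stem and progenitor cells in many tissues. It was detected less often, with 47 UMIs in 44 cells of the library, and its UMIs lay in the same 2 named classes. The sustentacular-like cells had 16 UMIs, each in a different cell, or 69.2 CPM (39.6 to 112). The transitioning-like cells had 23 UMIs in 20 cells, or 9.07 CPM (5.75 to 13.6), which puts the sustentacular-like level 7.63-fold higher (3.77 to 15.1). The remaining 8 UMIs were in mixed cells. All 10 other named classes had 0 UMIs, including 2946 cortex-like, 1669 adrenaline chromaffin-like and 1642 endothelial-like cells.

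The share of cells with a *Sox2* UMI was 8.94% of the sustentacular-like cells (5.196% to 14.1%) and 4.83% of the transitioning-like cells, and 6.504% and 1.70% after thinning to 1000 UMIs. In the 1669 adrenaline chromaffin-like cells it was 0, which allows up to 0.221%. With 1 UMI in each positive sustentacular-like cell, a cell without a UMI cannot be called negative at this depth. The transitioning-like cells split by their own marker UMIs showed 9.53 CPM of *Sox2* on the noradrenaline side (15 UMIs in 259 cells) and 8.89 CPM on the adrenaline side (8 UMIs in 138 cells). *Sox10* had 68.6 CPM (56.3 to 82.8) and 54.5 CPM (40.3 to 72.0) on these sides. The intervals of the sides overlapped for both genes.

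*Sox2* and *Sox10* were only partly found in the same cells. Of the 16 sustentacular-like cells with *Sox2*, 8 (50.0%, 24.7% to 75.3%) had *Sox10*, against 38.0% (30.6% to 46.0%) of the 163 cells without *Sox2*. In the transitioning-like class 4 of 20 cells with *Sox2* (20%, 5.73% to 43.7%) had *Sox10*, against 29.4% (24.98% to 34.2%) of the 394 others. The intervals overlapped in both classes, so these counts do not separate joint from independent detection. *Th*, the first enzyme of catecholamine synthesis, was found in 19 of the 20 transitioning-like cells with *Sox2* and in 115 of the 120 with *Sox10*. It was found in 2 of 16 and 4 of 70 such sustentacular-like cells.

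The SOXD genes *Sox5* and *Sox6*, which encode long coiled-coil SOX proteins, were also highest in the sustentacular-like cells. *Sox5* (ENSMUSG00000041540, chr6:143828425-144781977, minus strand) had 14 UMIs there, or 60.6 CPM (33.1 to 102). The transitioning-like cells had 42 UMIs, or 16.6 CPM (11.9 to 22.4), a level 3.66-fold lower (1.84 to 6.83 for the ratio). The noradrenaline chromaffin-like cells had 2 UMIs, or 1.52 CPM (0.184 to 5.48), and the adrenaline chromaffin-like cells 39 UMIs, or 5.30 CPM (3.77 to 7.25). The ratio of the adrenaline to the noradrenaline class was 3.49, with an interval from 0.904 to 29.9 that includes equal levels. The cortical classes together had 9.51 CPM of *Sox5* (8.27 to 10.9), 1.19-fold the level of all other cells on CPM + 10.

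*Sox6* (ENSMUSG00000051910, chr7:115470872-116038796, minus strand) had 64 UMIs in all. The sustentacular-like cells held 8 UMIs, or 34.6 CPM (14.9 to 68.2), and the transitioning-like cells 19 UMIs, or 7.50 CPM (4.51 to 11.7). The ratio was 4.62 (1.75 to 11.0). *Sox6* had 0 UMIs in the noradrenaline and 3 in the adrenaline chromaffin-like cells. Of the 7 sustentacular-like cells with *Sox6*, 6 had *Sox10*, against 64 of 172 without it (85.7%, 42.1% to 99.6%, against 37.2%, 29.97% to 44.9%). The intervals overlapped, and the first share rests on 7 cells.

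Several genes linked to SOXE factors in glia and neural crest by textbook knowledge were high in the class where *Sox10* was highest. Of the 7 genes of this list with at least 100 UMIs, 5 were at least 4-fold higher in the sustentacular-like class (background 2.74%). *Cdh19* was 37.9-fold higher, at 705 CPM, and *S100b*, a calcium-binding protein of glia, 36.4-fold, at 653 CPM. *Erbb3*, the neuregulin receptor of Schwann cells, was 15.7-fold higher at 216 CPM. *Foxd3*, a neural crest transcription factor, was 14.0-fold higher at 173 CPM. *Cdh19*, *S100b*, *Erbb3* and *Foxd3* are also among the markers that named this class, so their level there is a description. They are among the 5 genes counted, so that count cannot be weighed against the background. *Ednrb*, the endothelin receptor B, had 43.3 CPM in the class against 208 CPM in all other cells.

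*Sox8* (ENSMUSG00000024176, chr17:25565892-25570686, minus strand), a SOXE relative of *Sox10* that peripheral glia can also express, showed a different pattern. The adrenaline chromaffin-like cells held 103 of its 162 UMIs, or 14.0 CPM (11.4 to 17.0), in 95 of 1669 cells. The noradrenaline chromaffin-like cells had 0 UMIs in 390 cells. The adrenaline level was 6.15-fold the 2.28 CPM that 3 counts give in the noradrenaline class. This fold leaves out the counting error of the 103 UMIs, so it is no lower bound. The exact interval of a 0 count in the noradrenaline class reaches 2.80 CPM, which lies below the interval of the adrenaline class. The sustentacular-like cells had 2 UMIs of *Sox8*, or 8.65 CPM (1.05 to 31.3), which the data cannot set above or below the adrenaline class (ratio 0.618, 0.0739 to 2.29).

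The 3 clusters that make up the adrenaline chromaffin-like class had like levels of *Sox8*. The cluster led by *Pnmt* and *Cfap61* had 14.4 CPM (9.64 to 20.7), the cluster led by *Chga* and *Slc6a4* 14.1 CPM (11.0 to 17.8), and a cluster of 124 cells led by the stress-response genes *Atf3* and *Egr3* 11.2 CPM (3.63 to 26.1). The transitioning-like cells had 25 UMIs, or 9.86 CPM (6.38 to 14.6). Split by their own marker UMIs, the adrenaline side had 16.7 CPM (15 UMIs) and the noradrenaline side 6.35 CPM (10 UMIs), a ratio of 2.63 (1.10 to 6.53). The cycling chromaffin-like cells on the adrenaline side had 8 UMIs, or 11.4 CPM (4.91 to 22.4), and those on the noradrenaline side 0 in 28 cells. When all chromaffin-like and transitioning-like cells were assigned by their own UMIs in place of clusters, *Sox8* had 13.9 CPM on the adrenaline and 3.48 CPM on the noradrenaline side, or 4.002-fold more (2.16 to 8.23). The intervals of the transitioning-like split and of the assignment by single cells lay above 1. In the cycling cells the limit that 0 UMIs allow, 15.7 CPM, was above the level of the adrenaline side, so that split gave no direction.

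By cell, 5.69% of adrenaline chromaffin-like cells (median 3163 UMIs) had a *Sox8* UMI, and 0 of 1642 endothelial-like cells (median 1736.5 UMIs). After thinning to 1000 UMIs the shares were 1.51% of 1658 adrenaline and 0 of 367 noradrenaline chromaffin-like cells. The exact interval of the latter reaches 1.00%, below the adrenaline share, whose own interval is not given here. *Sox8* and *Sox10* were found in the same transitioning-like cells in 9 cases. Of the 23 cells with *Sox8*, 39.1% (19.7% to 61.5%) had *Sox10*, and of the 391 cells without it, 28.4% (24.0% to 33.1%). Median depth was 8184 and 5048 UMIs in these 2 sets.

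The annotation places an antisense transcript, *2810468N07Rik*, on the plus strand over exons of *Sox8*. Across the 12 classes it was the gene whose level was most like that of *Sox8* (Pearson r = 0.969 of log2(CPM + 10)), followed by *Pcdh10* (r = 0.931) and *Galnt16* (r = 0.930). It had 214 UMIs, or 29.1 CPM (25.3 to 33.3), in the adrenaline and 6 UMIs, or 4.55 CPM (1.67 to 9.91), in the noradrenaline chromaffin-like cells. Whether the counting used the strand is not given in the sources used here, so reads of the 2 genes cannot be told apart with certainty.

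*Sox11* (ENSMUSG00000063632, chr12:27334264-27342574, minus strand), a SOXC factor of immature neurons and progenitors, was distributed the opposite way within the medulla. The noradrenaline chromaffin-like cells had 19 UMIs, or 14.4 CPM (8.68 to 22.5), in 16 of 390 cells. The adrenaline chromaffin-like cells had 18 UMIs, or 2.45 CPM (1.45 to 3.87), in 18 of 1669 cells. The noradrenaline class was 5.89-fold higher (2.93 to 11.9), and the 2 intervals did not overlap. The sustentacular-like cells had 0 UMIs. The limit of 3 counts is 12.98 CPM there, close to the level of the noradrenaline class, and the exact interval of a 0 count reaches 15.96 CPM.

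Within the transitioning-like cells *Sox11* had 8.89 CPM (14 UMIs) on the noradrenaline side and 3.34 CPM (3 UMIs) on the adrenaline side, but the interval of the ratio, 0.744 to 14.5, included equal levels. Assigned by their own marker UMIs, all chromaffin-like and transitioning-like cells had 10.8 CPM on the noradrenaline and 2.52 CPM on the adrenaline side, a ratio of 4.28 (2.43 to 7.69). The 3 adrenaline clusters ranged from 2.25 to 4.47 CPM. A *Sox11* UMI was found in 4.10% of the noradrenaline class (median 2646.5 UMIs) against 1.08% of the adrenaline class (median 3163 UMIs), and in 1.63% against 0.181% after thinning. The share in the cortex-like cells, at a median of 4984 UMIs, was 0.339%. *Sox11* and *Sox8* were found together in 1 of the 102 chromaffin-like cells with *Sox8*.

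**Figure D3:**
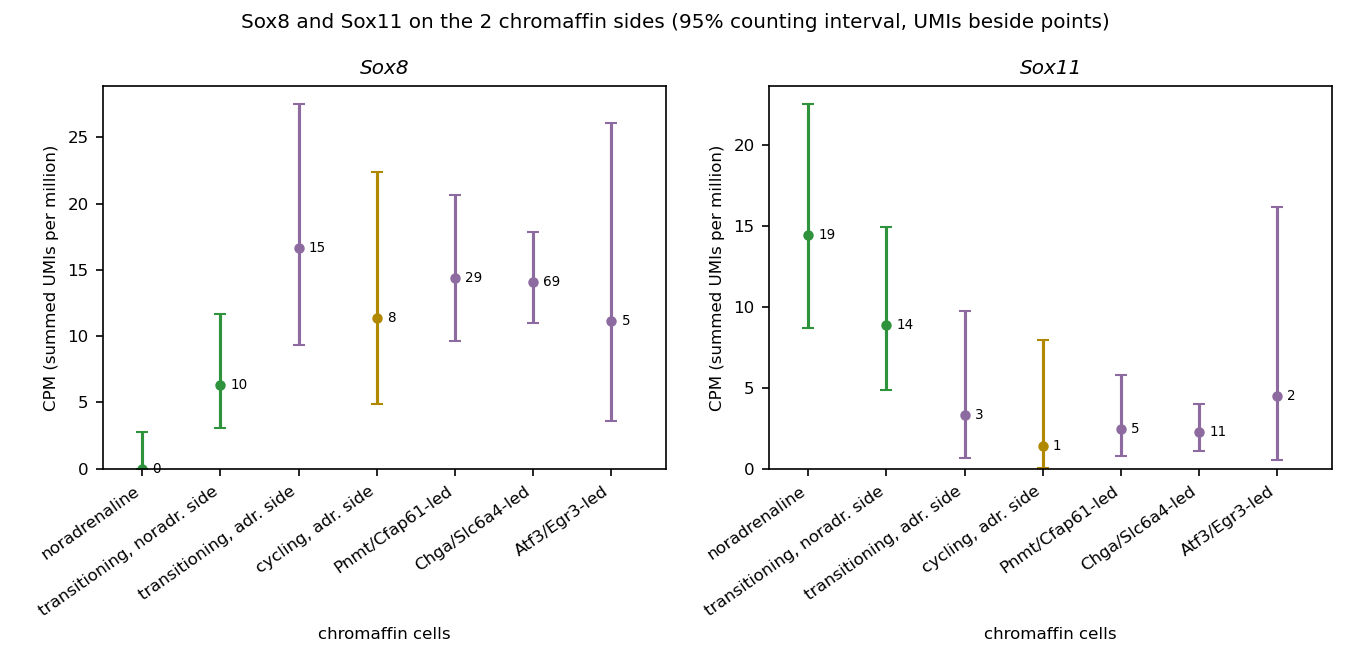
Levels of *Sox8* and *Sox11* (vertical axis, CPM from 0) in the noradrenaline chromaffin-like class, the 2 sides of the transitioning-like class, the adrenaline side of the cycling chromaffin-like class and the 3 adrenaline clusters, with exact 95% counting intervals and UMI counts. *Sox8* had 0 UMIs in the noradrenaline class and 11.2 to 14.4 CPM in the adrenaline clusters, whereas *Sox11* was highest in the noradrenaline class at 14.4 CPM.

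Of 6 neuronal genes linked to SOXC factors by textbook knowledge, 2 were at least 4-fold higher in the noradrenaline chromaffin-like class than in all other cells (background 1.17%). The list's median was 2.16-fold against 0.930-fold over all genes tested. The neuronal tubulin *Tubb3* had 150 CPM in the class and 16.9 CPM elsewhere, and *Stmn2*, a growth cone protein, 1054 and 167 CPM. *Stmn1* and *Dbn1* were 2.12-fold and 2.20-fold higher, *Dcx* was at 4.55 against 3.42 CPM, and *Tead2* had 0 UMIs in the class. *Sox11* itself was higher in all endothelial-like cells (35.6 against 14.4 CPM), where this list was not counted. A comparison with the adrenaline chromaffin-like cells alone is not given for these genes.

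*Sox4* (ENSMUSG00000076431, chr13:28948919-28953713, minus strand), the second SOXC factor and the closest relative of *Sox11* in the sequences shown, was the member with UMIs in every named class.  The fibroblast-like cells had 327 CPM (264 to 400), the endothelial-like cells 260 CPM (245 to 277) and the cycling endothelial-like cells 193 CPM (173 to 214). The medullary classes were close to each other, at 177 CPM (161 to 194) in the transitioning-like, 171 CPM in the cycling chromaffin-like, 160 CPM (113 to 221) in the sustentacular-like, 153 CPM (144 to 162) in the adrenaline and 146 CPM (126 to 168) in the noradrenaline chromaffin-like cells. These neighbours overlapped in their intervals.

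The lowest *Sox4* levels were in the immune-like cells (71.2 CPM, 57.5 to 87.2), the cortex-like cells (70.5 CPM, 66.7 to 74.4) and the cycling cortex-like cells (55.1 CPM, 47.5 to 63.6). All endothelial-like cells together were 3.50-fold (3.25 to 3.77) above all cortical cells, and all chromaffin-like cells 2.25-fold (2.10 to 2.42) above them. At least 1 *Sox4* UMI was found in 36.5% of the endothelial-like class (median 1736.5 UMIs), and in 30.1% of the cortex-like class (median 4984 UMIs), and in 21.4% and 6.90% after thinning. At equal depth the shares were farther apart than the raw ones.

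*Sox11* was higher in the endothelium than in any medullary class. The endothelial-like cells had 120 UMIs, or 31.3 CPM (25.9 to 37.4), and the cycling endothelial-like cells 82 UMIs, or 44.8 CPM (35.6 to 55.6). The cycling cells were 1.43-fold (1.07 to 1.91) higher. Over all endothelial-like cells the level was 35.6 CPM, which is 2.47-fold (1.54 to 4.19) that of the noradrenaline chromaffin-like class. Of the 172 endothelial-like cells with *Sox11*, 45.9% (38.3% to 53.7%) had *Sox4*, against 36.3% (34.2% to 38.5%) of the 1962 without, with median depths of 3411.5 and 1920.5 UMIs. The depth of the 2 sets differed in the same direction as the share.

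The SOXF genes *Sox17* and *Sox18*, which act in blood vessel and lymphatic development, were the most endothelial members. *Sox17* (ENSMUSG00000025902, chr1:4490931-4497354, minus strand) had 176 UMIs, or 45.8 CPM (39.3 to 53.1), in the endothelial-like and 59 UMIs, or 32.2 CPM (24.5 to 41.6), in the cycling endothelial-like cells. It had 0 UMIs in all 5 medullary classes and 2 in the cortex-like cells. *Sox18* (ENSMUSG00000046470, chr2:181669836-181671640, minus strand) had 142 UMIs, or 37.0 CPM (31.2 to 43.6), and 47 UMIs, or 25.7 CPM (18.9 to 34.1), in the same 2 classes. Against all cells that were not endothelial-like, fibroblast-like or mixed, all endothelial-like cells were 186-fold (92.7 to 435) higher in *Sox17* and 119-fold (63.5 to 253) higher in *Sox18*. These ratios leave out groups with UMIs of both genes. The fibroblast-like cells held 5.47% of *Sox17* and 1.57% of *Sox18* UMIs, and the mixed cells 20.7% and 20.4%. Against all other cells, on CPM + 10, the folds were 4.22 for *Sox17* and 3.76 for *Sox18*.

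The annotation places *Gm37587* on the other strand over exons of *Sox17*, *Sox5os1* over exons of *Sox5* and *Gm26735* over exons of *Sox4*. *Gm37587* had 16 UMIs in the library and *Sox5os1* had 0.

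By cell, 9.62% of endothelial-like cells had *Sox17* and 7.92% had *Sox18*, against 0 of 1669 adrenaline chromaffin-like cells for both genes, at median depths of 1736.5 and 3163 UMIs. Thinned to 1000 UMIs the endothelial shares were 4.16% and 3.28%. Of the 211 cells of all endothelial-like classes with *Sox17*, 28 also had *Sox18* (13.3%), against 7.64% of the 1923 without. The cells with *Sox17* were deeper (median 3261 against 1911 UMIs), and the part of depth in this gap was not tested. *Pecam1*, an endothelial adhesion molecule, was found in 73.9% and 62.7% of these 2 sets.

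Within the endothelium the *Sox17* level differed between clusters. A cluster of 204 cells led by *Mgp* and *Lyve1* had 3 UMIs of *Sox17*, or 8.67 CPM (1.79 to 25.3). The other non-cycling endothelial clusters, led by *Ramp2*, by *Gpihbp1* and by *Ehd3*, had 50.5, 55.8 and 41.5 CPM. Together these were 5.71-fold (1.92 to 28.0) above the *Mgp* and *Lyve1* cluster. *Sox18* had 11 UMIs, or 31.8 CPM (15.9 to 56.9), in that cluster. In the others it had 37.5 CPM (31.4 to 44.5), and the ratio of 1.18 (0.638 to 2.42) includes equal levels. The intervals of the *Sox17* and *Sox18* ratios overlapped, so the 2 genes are not shown to differ. *Sox11* there had 40.5 CPM (22.1 to 67.9) against 30.3 CPM (24.8 to 36.7).

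*Sox4* was 1.88-fold (1.42 to 2.55) lower in the *Mgp* and *Lyve1* cluster, at 145 CPM. *Sox18* also varied among the other clusters, from 23.9 CPM (14.2 to 37.8) in the *Ramp2* cluster to 49.5 CPM (37.9 to 63.4) in the *Ehd3* cluster, whose intervals just failed to overlap. Cycling endothelial-like cells were lower than the non-cycling clusters together in *Sox17* (1.54-fold, 1.14 to 2.10), *Sox18* (1.46-fold, 1.04 to 2.09) and *Sox4* (1.41-fold, 1.25 to 1.60). Their *Sox11* level of 44.8 CPM overlapped in its interval with that of the *Mgp* and *Lyve1* cluster.

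**Figure D4:**
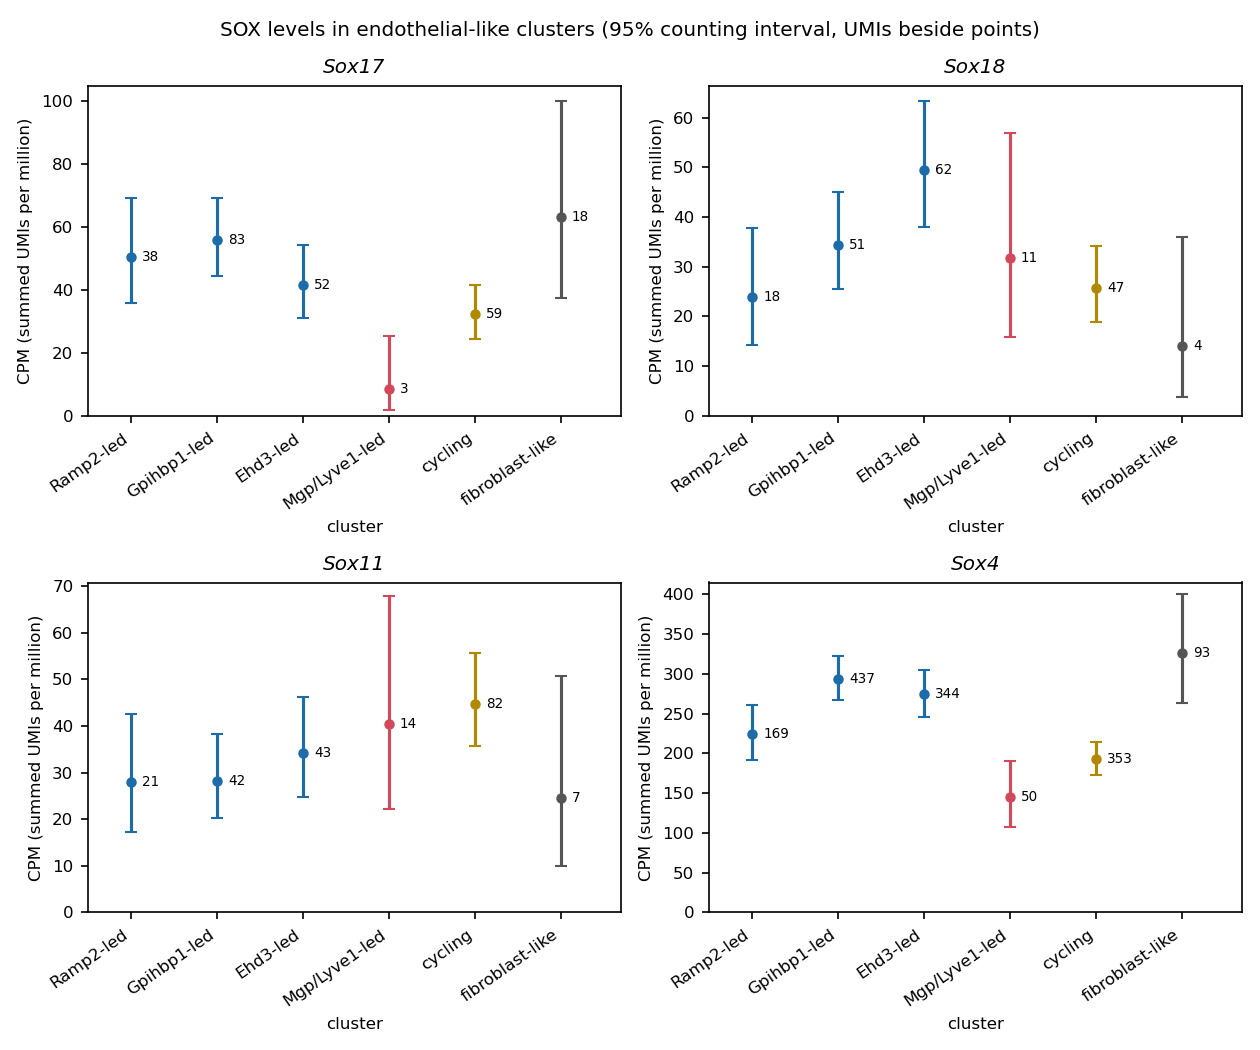
Levels of *Sox17*, *Sox18*, *Sox11* and *Sox4* (vertical axis, CPM from 0) in the 5 endothelial-like clusters and the fibroblast-like class, with exact 95% counting intervals and UMI counts. *Sox17* was at 8.67 CPM in the *Mgp* and *Lyve1* cluster and at 32.2 to 55.8 CPM in the other endothelial-like clusters, while *Sox18* and *Sox11* had overlapping intervals between that cluster and each other one.

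The fibroblast-like cells had 18 UMIs of *Sox17*, or 63.2 CPM (37.5 to 99.95), in 14 of 89 cells. *Sox18* had 4 UMIs there, or 14.1 CPM (3.83 to 36.0). The ratio of *Sox17* to the endothelial-like class was 1.38 (0.799 to 2.24). This class also had UMIs of all 8 endothelial markers, at a summed 3911 CPM, against 7544 CPM in the endothelial-like and 37.0 CPM in the adrenaline chromaffin-like cells. All 6 fibroblast markers had UMIs, at 2551 CPM, and the 7 chromaffin markers were at 3155 CPM. Found in at least 25% of the class were 7 of the endothelial, 3 of the fibroblast and 1 of the chromaffin markers. Of its 14 cells with *Sox17*, 10 had *Pecam1*, against 19 of the 75 others, at median depths of 4851.5 and 1699 UMIs. The part of endothelial RNA or cells in this value was not tested. Scrublet called 2.25% of the class doublets, and *Sox17* was at 64.7 CPM (38.4 to 102) without them.

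Of 11 endothelial genes linked to SOXF factors by textbook knowledge, 10 had at least 100 UMIs, and 7 of these were at least 4-fold higher in all endothelial-like cells (background 3.13%). The median over the 11 genes was 5.68-fold, against 0.951-fold over all genes tested. The claudin *Cldn5* was 20.7-fold higher at 760 CPM, and *Cdh5*, VE-cadherin, 15.7-fold at 475 CPM. The receptors *Notch1* and *Notch4* were 5.68-fold and 5.49-fold higher. Their ligand *Dll4* was 3.51-fold higher, at 31.2 against 1.74 CPM, and did not reach the rule. *Vcam1* was lower, at 18.5 against 37.5 CPM. *Prox1*, the lymphatic fate factor downstream of *Sox18* in development, was at 18.0 CPM in the endothelium against 98.5 CPM in all other cells. *Cdh5*, *Egfl7* and *Kdr* are also among the markers that named the class and among the 7 genes counted. They enter the median too, so neither that count nor the median can be weighed against all genes.

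In the cortex *Sox5* and *Sox4* differed by cluster. The outer cortex-like cells, which carried *Wnt4*, *Dab2* and other markers of the outer zone, had 18.1 CPM of *Sox5* (9.06 to 32.5), and a larger cluster of 455 cells led by *Ly6d* and *Wnt4* had 20.3 CPM (15.4 to 26.4). The cluster led by *Cyp11b1*, the last enzyme of glucocorticoid synthesis, had 13.4 CPM (10.3 to 17.3). The clusters led by *Akr1d1*, by *Apoc1* and *C3*, and by *Spp1* had 7.20, 5.89 and 2.03 CPM. The first 2 clusters together were 3.59-fold (2.50 to 5.17) above the last 3 together.

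*Sox4* had 109 CPM (98.1 to 121) in the first pair and 48.6 CPM (44.5 to 52.98) in the last 3 clusters, 2.24-fold apart (1.96 to 2.57). Within it the outer cortex-like cells, at 74.2 CPM (54.1 to 99.3), were lower than the *Ly6d* cluster, at 117 CPM (104 to 130). The third SOXC gene, *Sox12*, showed a ratio of 3.28 (2.18 to 4.92). *Sox6* had 4 UMIs in 125 outer cortex-like cells, or 6.60 CPM (1.80 to 16.9), and 6 in 2946 cortex-like cells, or 0.332 CPM (0.122 to 0.722). The intervals did not overlap, but the value rests on 4 UMIs.

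**Figure D5:**
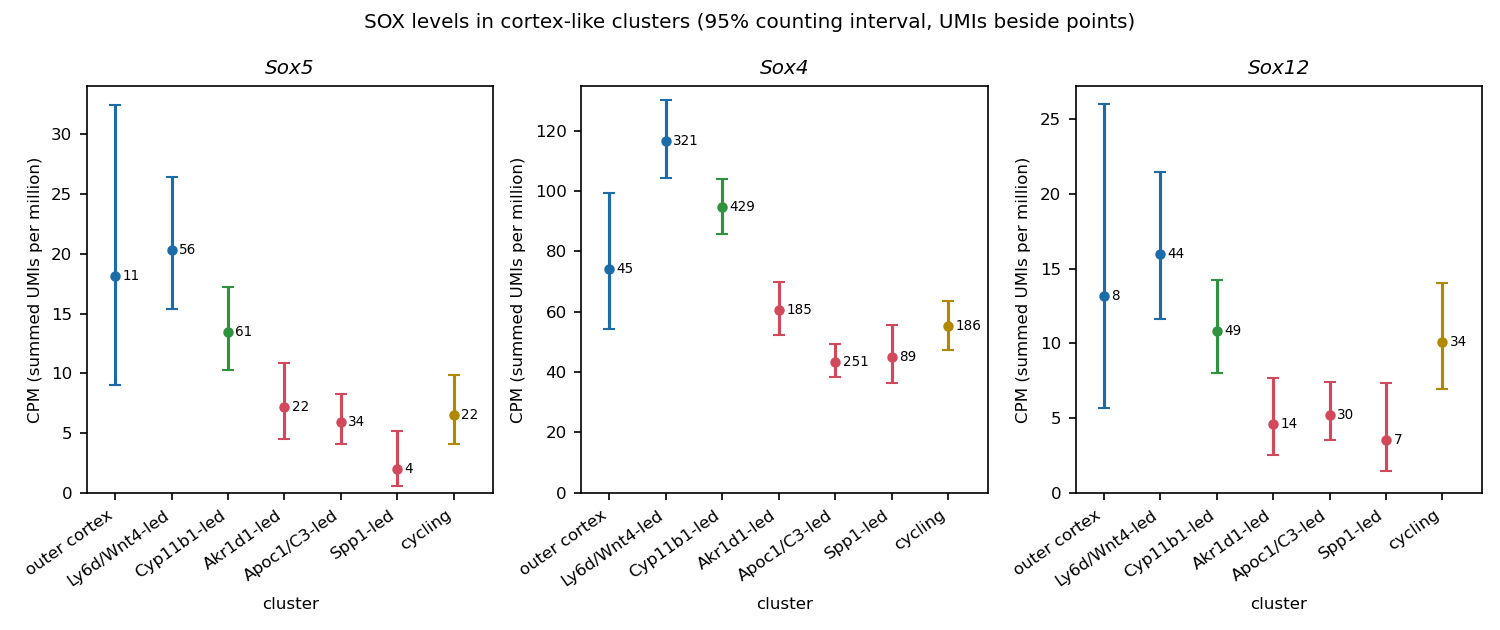
Levels of *Sox5*, *Sox4* and *Sox12* (vertical axis, CPM from 0) in the 7 cortical clusters, named by class or leading genes, with exact 95% counting intervals and UMI counts. The outer cortex-like and *Ly6d* and *Wnt4* clusters had 18.1 and 20.3 CPM of *Sox5*, and the *Akr1d1*, *Apoc1* and *Spp1* clusters 2.03 to 7.20 CPM.

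*Sox9* (ENSMUSG00000000567, chr11:112782224-112787760, plus strand), the SOXE factor of cartilage and gonadal support cells, marked no class. It had 39 UMIs in 35 cells, or 0.801 CPM (0.570 to 1.10) over the library. The mixed cells held 16 of these UMIs, the cortex-like cells 11 (0.608 CPM) and the fibroblast-like cells 2 (7.03 CPM, 0.851 to 25.4). The sustentacular-like cells had 0, which allows up to 15.96 CPM. Of 8 cartilage genes linked to SOX9 with SOX5 and SOX6, only *Hapln1*, a link protein of the matrix, had at least 100 UMIs. It was 12.01-fold higher in the sustentacular-like cells at 182 CPM, and *Col2a1*, *Col9a1* and *Matn1* had 0 UMIs in the library.

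The matrix holds 18 further features named Sox with a number, and 3 of them had at least 100 UMIs. *Sox7*, the third SOXF gene, followed its group with 109 UMIs, or 28.4 CPM (23.3 to 34.3), in the endothelial-like and 0 in the sustentacular-like, transitioning-like and chromaffin-like cells. In the *Mgp* and *Lyve1* cluster, where *Sox17* was low, it had 46.3 CPM (26.4 to 75.1), and 26.6 CPM (21.5 to 32.6) in the other non-cycling clusters, whose intervals overlapped. The SOXD gene *Sox13* had 39.6 CPM (33.6 to 46.4) in the endothelial-like and 47.6 CPM (23.8 to 85.2) in the sustentacular-like cells, against 0.408 CPM in the adrenaline chromaffin-like cells. *Sox12* was spread over all classes like *Sox4*, between 3.06 CPM in the immune-like and 21.6 CPM in the sustentacular-like cells. Both of these values rest on few UMIs, so neither end of the range is firm. The other 15 features had 0 to 11 UMIs each.

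The members' patterns over the 12 classes can be set side by side as Pearson correlations of log2(CPM + 10), a description in which all points share 1 library. *Sox17* and *Sox18* had r = 0.931, *Sox6* and *Sox10* 0.895, *Sox2* and *Sox10* 0.892, *Sox5* and *Sox6* 0.891, and *Sox11* and *Sox18* 0.884. Among all genes with at least 100 UMIs, those most like *Sox10* were the potassium channel *Kcna2* (r = 0.998), *Cmtm5* (0.998) and *Plekhb1* (0.997). Those most like *Sox2* were *Sgcd* (0.990), *Fam107a* (0.976) and *Matn4* (0.975). For *Sox5* they were *Ptgfrn* (0.973), *Kirrel* (0.971) and *Pdgfa* (0.952), and for *Sox6* *Afap1l2* (0.976), *Col16a1* (0.971) and *Ldlrad3* (0.955). All 12 of these genes were highest in the sustentacular-like class, which largely follows from choosing them by likeness to members that were highest there. The *Sox2* and *Sox6* correlations rest on few counts, with 47 and 64 UMIs in all.

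*Sox17* was most like *Hs3st3b1* (0.998), the thrombin receptor thrombomodulin *Thbd* (0.997) and *Cldn15* (0.996), all highest in the fibroblast-like class. *Sox18* was most like *Unc45b* (0.999), *Rbp7* (0.995) and *Lyve1* (0.995), and *Sox11* most like *Heg1* (0.974), *Cyyr1* (0.971) and the semaphorin *Sema6a* (0.961), all 6 highest in the endothelial-like class. *Sox4* was most like *Add1* (0.963), *Acap3* (0.963) and *Tgfb1i1* (0.949), and *Sox9* most like *Rbp4* (0.980), *Prrx1* (0.972) and *Sdc1* (0.967). These 6 were highest in the fibroblast-like class. As for the genes above, the highest class largely follows from the choice by likeness. The *Sox9* correlations rest on few counts, since *Sox9* had 39 UMIs in all and was found in 2 fibroblast-like cells.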

How the data were processed

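The authors deposited 1 matrix of UMI counts per gene and barcode, made per the labels with Cell Ranger 4.0.0 on mm10 from a 10x 3′ library, without normalization. Barcodes of 500 to 5000 genes and at most 20% mitochondrial UMIs were kept, as in the study's methods. They were clustered with Seurat 5.3.0 (R 4.3.3) on 2000 variable features, 10 principal components and a resolution of 0.4. Clusters were named where at least 3 markers of a list were widely detected, and medullary, endothelial and cortical cells were clustered again. Levels are summed UMIs per 1000000 UMIs of a class (CPM) with exact Poisson intervals, shares have exact binomial (Clopper-Pearson) intervals, and ratios exact conditional ones. They cover counting error only. The limit given for a count of 0 is the upper end of the exact interval, except where 3 counts are named. Scrublet in scanpy 1.11.5 called 669 cells (6.60%) doublets, which were kept. Cells with at least 1000 UMIs were thinned to 1000 UMIs to compare shares, and cells with fewer UMIs were left out of the thinned shares. Folds used CPM + 10 and all 12667 genes with at least 100 UMIs. Positions, overlaps and sequences come from GENCODE M21 (GRCm38, the assembly of mm10). The calculations were tested on simulated data. The genes named are the members, all other Sox features, the 3 genes most like each member and 4 gene lists. Members, lists and markers were chosen with earlier results of these data known. The study's library of sorted cells was not analysed here. A gene of the glial list is not reported here.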

Additional observations from a re-analysis of the deposited data

Results flagged for a closer look

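Barcodes that the filter on genes removed also held SOX UMIs. In the 950 barcodes with fewer than 500 genes, *Sox4* was at 76.3 CPM (60 UMIs), *Sox5* at 7.63 CPM, *Sox6* at 5.09 CPM, *Sox10* at 42.0 CPM (33 UMIs), *Sox17* at 6.36 CPM and *Sox18* at 7.63 CPM, each above the 3 counts that a count of 0 allows. *Sox8* and *Sox9* had 0 UMIs there. The *Sox10* value (28.9 to 58.9) compares with 6.80 CPM over all cells that passed. The 28 such barcodes with *Sox10* also held other sustentacular markers. *Scn7a* was found in 57.1% of them (37.2% to 75.5%), *S100b* in 42.9% and *Cdh19* in 28.6%, against 4.12%, 2.39% and 2.06% of the 922 barcodes without *Sox10*. *Kdr*, an endothelial receptor, was found in 0 of the 28 and in 10.7% of the others. Median depth was 594.5 and 686 UMIs. These barcodes entered no comparison.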

How the results depend on the processing

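With 1 library, neither replicate spread nor animal differences can be seen, and all intervals cover counting error only. Under other resolutions, 30 principal components, SOX genes left out of the variable features, stricter filters, doublets removed, cells averaged one by one or chromaffin sides taken from single cells, 62 of 64 recomputed levels stayed within the counting interval. The *Sox9* level over all cells under other clusterings of the same cells is not counted, since it cannot change. With Scrublet doublets left out before clustering, *Sox10* was at 283 CPM in a sustentacular-like class that then held 192 cells and its ratio to the transitioning-like cells at 4.47; the cause was not tested. The mean over cells of each cell's CPM gave 0.566 CPM for *Sox9*. Under the stricter filter (1000 genes or more, 10% mitochondrial UMIs or less) the *Sox4* ratio of all endothelial-like to cortex-like cells was 3.66, against 3.39, and no cluster was named sustentacular-like, so its values have no counterpart there. *Sox8* had 0 UMIs in the noradrenaline chromaffin-like cells under all 6 other clusterings. All 18 recomputed shares were lower than reported, since both alternatives count fewer UMIs, and 14 of them lay outside the counting interval. At 2 UMIs or more, the shares were 0% (*Sox2*), 8.94% (*Sox10*), 0.559% (*Sox5*) and 0.559% (*Sox6*) of sustentacular-like cells, 0.359% (*Sox8*) of adrenaline and 0.769% (*Sox11*) of noradrenaline chromaffin-like cells, and 14.9% (*Sox4*), 0.937% (*Sox17*) and 0.469% (*Sox18*) of all endothelial-like cells. Thinned to 1000 UMIs, the last 5 were 1.51%, 1.63%, 20.2%, 4.16% and 2.97%. A pseudocount of 1 CPM in place of 10 raised the number of members at least 4-fold higher in a class from 3 to 6 of 7. The share of all genes with that pseudocount is not given here, so the count of 6 cannot be weighed against it. Under the 6 other clusterings, an alternative chosen after seeing the data, the number was 2, without *Sox5*. No paired analysis was possible because there is 1 library.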

Other observations

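The mixed clusters, which belong to no named class and count only among the other cells of the folds and in values over all cells, held 13.3% of all *Sox10* UMIs, 17.0% of *Sox2*, 20.7% of *Sox17* and 41.0% of *Sox9*. One of them, 286 cells led by *Ly6d* and *Cyp11b1*, was found among the cortical cells but met both the cortical and the endothelial marker list. It had *Sox17* at 17.3 CPM (12.5 to 23.3), *Sox18* at 10.0 CPM (6.496 to 14.8), *Sox7* at 10.4 CPM and *Sox11* at 11.6 CPM. No cortical cluster of a named class was above 1.78 CPM for any of them. Scrublet called 16.1% of the cells of this mixed cluster doublets. The part of endothelial RNA or cells in these values was not tested.

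*Sox2ot*, a transcript on the same strand that runs across *Sox2* without sharing exons, had 9 UMIs. Of these, 3 lay in the sustentacular-like cells (12.98 CPM), 2 in the transitioning-like, 3 in the mixed and 1 in the cycling cortex-like cells.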
